A study of Homo sapiens with 4 samples.

Results

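UNC93B1 and the Toll-like receptors were examined in U87MG, an established human glioblastoma cell line, after silencing of caspase-2. The set holds 10 genes: UNC93B1, the receptors TLR1, TLR2, TLR3, TLR4, TLR5, TLR6 and TLR9, and the adaptors MYD88 and TICAM1. UNC93B1 was chosen by its lower value in the silenced cells on these same arrays, so its values are described here with no test. The receptors and adaptors were taken as genes of the Toll-like receptor pathway, surface receptors included, with earlier results of these data known. Of the 10 genes, 9 had at least 1 probe set (several short probes summarized into 1 value) with no other gene symbol, out of 18404 such genes on the array, and TLR5 had none in the annotation used here. UNC93B1 had 3 probe sets and every other measured member had 1.

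The experiment compared 2 arrays from cells transfected with a control siRNA with 2 arrays from cells transfected with a siRNA against CASP2, to find genes whose expression depends on caspase-2. All 4 cultures were of the same line in the same medium. The methods list an oligo against CASP2 and a control from each of 2 suppliers. For 1 supplier the control is a mutated form of the oligo against CASP2. Which pair was used for the arrays is not stated. The labels mark the arrays within each group as biological replicates, and the sources used here do not say how long after transfection the RNA was taken. Values are log2 values after Robust Multi-Array Average (RMA) normalization, which corrects the background, equalizes the arrays and summarizes each probe set. The median log2 value of an array lay between 6.18 and 6.28, and was highest on the second silenced array. That array also had the lowest upper quartile, 8.58 against 8.66 to 8.69 on the others. Over all probe sets, the control arrays differed from each other with a standard deviation of 0.205, and the silenced arrays with one of 0.348. CASP2, the silenced gene, lay at 10.74 and 10.69 on the control arrays and at 8.79 and 8.52 on the silenced arrays, a 4.17-fold lower level.

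Toll-like receptors recognize conserved microbial molecules and start inflammatory and interferon responses. TLR1, TLR2, TLR4, TLR5 and TLR6 mainly act at the cell surface, where they sense lipoproteins, lipopolysaccharide or flagellin, while TLR3, TLR7, TLR8 and TLR9 sense nucleic acids from inside endosomes. UNC93B1 is a multipass membrane protein that carries the endosomal receptors from the endoplasmic reticulum to endosomes, and without it they do not signal. MYD88 is the adaptor of most Toll-like receptors, and TICAM1, also called TRIF, is the adaptor of TLR3 and, with TICAM2, of TLR4. Myeloid cells such as macrophages and microglia express most of these receptors.

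The annotation names 3 probe sets for UNC93B1 and for no other gene, and ties all of them to the same 4 accessions. Probe set 7949904 had log2 values of 8.98 and 8.95 on the control arrays and of 8.30 and 8.14 on the silenced arrays. Both silenced arrays lay below both control arrays, and the difference of the means was -0.75, a 1.68-fold lower level. The change was -0.67 in the first silenced array and -0.82 in the second, beside a gap of 0.030 between the control arrays and one of 0.15 between the silenced arrays. In cells measured in bulk, fewer cells with the transcript and less of it in each cell cannot be told apart.

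Probe set 8138147 showed a smaller difference in the same direction. It lay at 8.29 and 8.41 on the control arrays and at 8.03 and 8.07 on the silenced arrays, a difference of -0.30. Here too the groups did not overlap, which held in either direction for 29.6% of all probe sets. Probe set 8094144 lay at 7.07 and 7.22 on the control arrays and at 6.78 and 7.47 on the silenced arrays, which enclosed the controls, and the means differed by -0.025. The sign of this value turned to 0.0074 after a further quantile normalization and to 0.014 for linear means, and the value ran from -0.37 without the second silenced array to 0.32 without the first. The UNC93B1 probe sets therefore gave 3 different values for the same gene name, a level 1.68-fold, 1.23-fold and 1.02-fold lower. Probe set 7949904 exceeded probe set 8138147 by 0.69 and 0.54 on the control arrays and by 0.27 and 0.077 on the silenced arrays. These values come from the contrast on which the gene was picked. Among all named probe sets with an unadjusted p under 0.05 and a lower level, the last one past the fold threshold of 1.5 was that of MARK2 (1.504-fold) and the first one short of it was that of SEMA3A (1.498-fold).

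**Figure D1:**
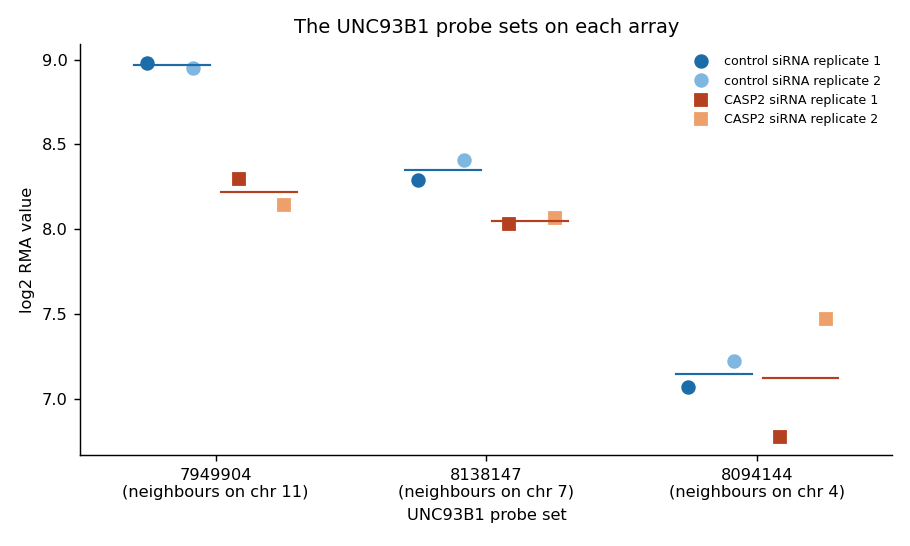
Log2 RMA value (y axis) of the 3 UNC93B1 probe sets (x axis, with the chromosome of the genes whose probe sets have the nearest numbers) on each of the 4 arrays. Circles stand for control siRNA, squares for CASP2 siRNA and lines for the mean of each group. On average the squares sit 0.75 lower in probe set 7949904 and 0.30 lower in 8138147, and they enclose the circles in 8094144.

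The probe set numbers of this array follow the order of genes along the chromosomes: 97.6% of consecutive probe sets with 1 gene belonged to genes of the same chromosome. RefSeq places UNC93B1 on chromosome 11. Of the 10 named probe sets with the nearest numbers, 5 on either side, 9 belonged to genes of chromosome 11 for probe set 7949904, which lies between those of FAM86C2P and CHKA. For probe set 8138147, 10 of the 10 belonged to genes of chromosome 7, and it lies between those of ZNF12 and COL28A1. For probe set 8094144, 9 of the 10 belonged to genes of chromosome 4, and it lies between those of DEFB131A and DRD5. The probe sets of the 8 other measured members each had 10 of 10 neighbours on the chromosome of their own gene.

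RefSeq lists 7 further genes named UNC93B, all of them pseudogenes, that is, copies of UNC93B1 that are not annotated as coding. UNC93B2 is the one located between ZNF12 and COL28A1 on chromosome 7, and UNC93B7 the one between DEFB131A and DRD5 on chromosome 4. The only UNC93B gene between FAM86C2P and CHKA is UNC93B1 itself. The sources used here do not give the probe positions, so all 3 probe sets keep the name that the annotation gives them. Which transcript each of them reports, and how far probes for UNC93B1 also bind transcripts of the copies, was not tested.

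Across the 4 arrays, the probe sets with 1 symbol whose profile, centred on the control mean, lay closest to that of UNC93B1 probe set 7949904 were those of URM1, SMIM14, CDK5RAP1, FYCO1 and LCP1. Their Euclidean distances were 0.146, 0.158, 0.196, 0.202 and 0.206 log2 units over 4 arrays. URM1, a ubiquitin-like modifier, lay at 8.97 and 9.03 on the control arrays and at 8.38 and 8.30 on the silenced arrays, close to the levels of UNC93B1 as well. SMIM14, a small membrane protein, lay at 7.47 and 7.62 against 6.92 and 6.81. LCP1, an actin-bundling protein, lay at 9.42 and 9.33 against 8.89 and 8.63. FYCO1, an adaptor of endosome and autophagosome transport, had a difference of -0.70, and CDK5RAP1, a tRNA-modifying enzyme, of -0.61. The other UNC93B1 probe sets ranked 313 and 14129 in this order. With 4 arrays such a list says only which genes had a like change on these arrays.

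The deposited table holds no detection calls. The level of each receptor was therefore set beside that of 371 probe sets of olfactory receptor genes, which are mostly silent outside olfactory tissue. The 95th percentile of these probe sets was 5.51 and 5.50 on the control arrays, 5.44 on the first silenced array and 5.69 on the second. Their median lay between 4.12 and 4.23. This 95th percentile lay below the median of all probe sets of each array (6.18 to 6.28), so most probe sets of an array passed it. The share of genes above it on all 4 arrays was not counted. Probe sets differ in affinity, so a receptor above this range is described as such and its value is not a measure of its abundance against another gene.

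TLR6, TLR3, TLR4 and TLR9 lay above the olfactory receptor range on all 4 arrays, a limit that most probe sets passed on each array. TLR6, which pairs with TLR2 to sense diacylated lipoproteins, lay at 7.74 and 7.84 on the control arrays and at 8.18 and 7.65 on the silenced arrays. TLR3, the endosomal receptor of double-stranded RNA, lay at 7.47 and 7.48 on the control arrays and at 7.73 and 7.38 on the silenced arrays. Both probe sets stood between the 62.7th and the 69.9th percentile of all probe sets on every array. TLR4, the receptor of lipopolysaccharide, lay at 7.12 and 7.18 on the control arrays and at 7.21 and 6.60 on the silenced arrays. TLR9, the endosomal receptor of unmethylated CpG DNA, lay at 6.62 and 6.82 on the control arrays and at 6.60 and 7.22 on the silenced arrays. The members above the range thus include surface and endosomal receptors.

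TLR1 and TLR2 lay at the edge of the range. TLR1, the partner of TLR2 for triacylated lipoproteins, lay at 5.66 and 5.64 on the control arrays and at 5.77 and 5.40 on the silenced arrays, and was above the range on 3 of 4 arrays. TLR2 lay at 5.29 and 5.30 on the control arrays and at 5.53 and 5.53 on the silenced arrays, and was above the range on 1 of 4. TLR7 and TLR8, endosomal receptors of single-stranded RNA that are not among the 10 genes, lay below the median of the olfactory receptor probe sets, at 3.39 to 3.57 and at 3.62 to 3.88. TLR10, like TLR5, had no probe set named for it alone in the annotation used here. The order of these probe set values is not an order of abundance. By their mean over 4 arrays, the ranges overlapped between TLR6 and TLR3, between TLR4 and TLR9, and between TLR1 and TLR2, while each of these pairs stood apart from the next.

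**Figure D2:**
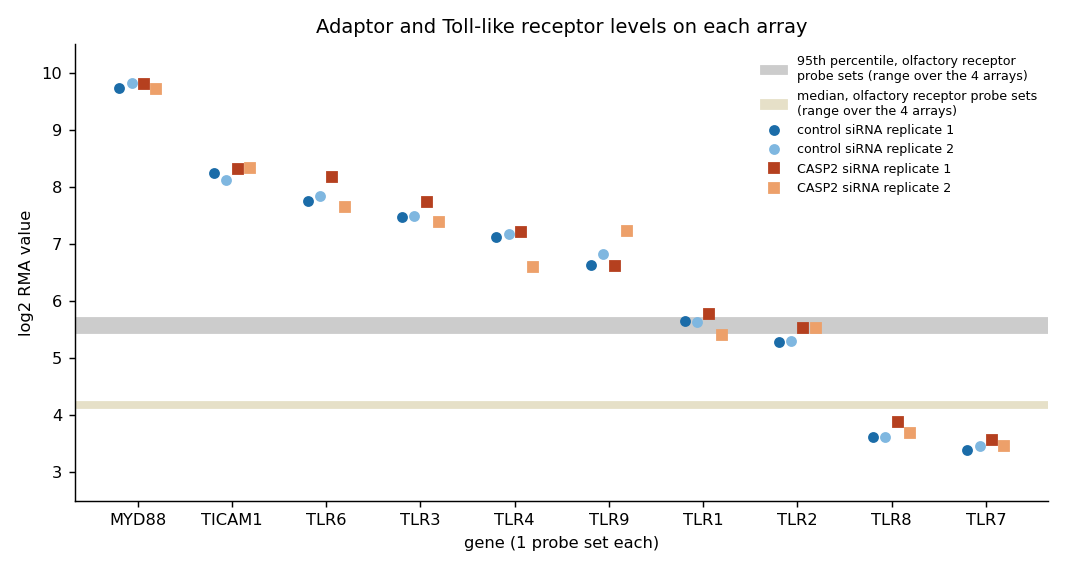
Log2 RMA value (y axis) of MYD88, TICAM1 and 8 Toll-like receptors (x axis) on each of the 4 arrays, with circles for control siRNA and squares for CASP2 siRNA. The bands show the range over the arrays of the 95th percentile (5.44 to 5.69) and of the median (4.12 to 4.23) of the olfactory receptor probe sets; 4 receptors lie above the upper band, TLR1 and TLR2 lie at it and TLR7 and TLR8 lie below the lower band.

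The number of receptors above the range depended on the reference. With 94 probe sets of keratin-associated proteins and bitter taste receptors in place of olfactory receptors, the 95th percentile lay between 7.86 and 8.49, and 0 receptors were above it on all arrays. TLR6 then passed on 1 array only. MYD88 was above this limit on all 4 arrays, and TICAM1 on 3 of 4. The UNC93B1 probe sets 7949904 and 8138147 passed it on 3 arrays each, and 8094144 on 0. On each array this limit lay below the upper quartile of all probe sets (8.58 to 8.69), and the share of all genes above it was not counted. Without the second silenced array, TLR1 joined the receptors above the olfactory range, for 5 in all.

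Both adaptors were well above the olfactory receptor range. MYD88 lay at 9.72 and 9.82 on the control arrays and at 9.80 and 9.72 on the silenced arrays, near the 85th percentile of all probe sets (84.9 to 85.8). TICAM1 lay at 8.23 and 8.12 on the control arrays and at 8.30 and 8.33 on the silenced arrays. The UNC93B1 probe sets lay between the 56.8th and the 78.0th percentile.

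Cell identity was checked with markers of glioma cells in culture and of myeloid cells, against a range that most probe sets of each array exceeded. Of 12 glioma cell markers, 12 lay above the olfactory receptor range, among them VIM at 12.94 to 13.04 and CD44 at 12.92 to 12.97. NES (6.36 to 6.58) and the glial markers GFAP (6.34 to 6.79) and OLIG2 (5.95 to 6.31) were above it at low levels. Of 12 myeloid markers, 4 lay above it, namely CD68 (12.20 to 12.30), a lysosomal protein of many cell types, TYROBP (7.31 to 7.79), SPI1 (6.37 to 6.74) and CSF1R (5.85 to 6.23). The leukocyte antigen PTPRC (3.67 to 3.76), the microglial receptor P2RY12 (4.06 to 4.23) and AIF1 (3.64 to 4.07) lay within it. The mean level of the 12 myeloid markers was 5.60 and 5.70 on the control arrays and 5.58 and 5.84 on the silenced arrays.

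After CASP2 silencing no receptor or adaptor passed the test. The 8 probe sets were compared with limma, which borrows the spread from all probe sets, with Benjamini-Hochberg adjustment over 32321 probe sets. Of the 8, 0 had an adjusted p under 0.05, as did 0.00% of all probe sets. At the study's own limits, which ask for more than 1.5-fold with an unadjusted p under 0.05, 0 of the 8 passed by limma, against 0.693% of all probe sets. Of the 8, 0 had an unadjusted p under 0.05 by limma, against 3.03% of all probe sets, and 0 had one by the methods' t-test, against 0.309% of all probe sets. The differences corresponded to 1.01-fold to 1.18-fold, 5 of the 8 were above 0, and their median was 0.10, beside 0.0022 over all probe sets. Each member had an adjusted limma p of 0.9999.

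TLR2 had the largest value above 0, a log2 difference of 0.23 (limma SE 0.089, 95% confidence interval -0.0044 to 0.47). Its silenced arrays differed by 0.0060 and lay above both control arrays, at a level on the edge of the olfactory receptor range. TICAM1 had a difference of 0.14 (interval -0.12 to 0.40), and its silenced arrays also lay above both controls. These were the 2 of 8 members whose groups did not overlap, beside 29.6% of all probe sets. For MYD88 the difference was -0.017 (interval -0.28 to 0.24), and its arrays of the groups interleaved.

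For the other 5 receptors the silenced arrays lay on both sides of the controls. TLR4 had the largest value below 0, a log2 difference of -0.24 (limma SE 0.22, interval -0.84 to 0.36). Its first silenced array lay 0.066 above the control mean and its second 0.55 below it. TLR6 had a difference of 0.12 (interval -0.42 to 0.66), with silenced arrays at 0.39 and -0.14 from the control mean. TLR3 had 0.079 (interval -0.32 to 0.47), with silenced arrays at 0.26 and -0.098. TLR1 had -0.063 (interval -0.47 to 0.35), with silenced arrays at 0.13 and -0.25. In TLR1, TLR3, TLR4 and TLR6 the first silenced array was the higher one, while in TLR9 the second was, at 0.50 against -0.12 from the control mean, for a difference of 0.19 (interval -0.44 to 0.82).

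The gap between the silenced arrays exceeded the gap between the control arrays in 5 of the 6 receptors, and in 70.1% of all probe sets. Its median was 0.45 for the receptors, against 0.038 between the control arrays, and over all probe sets these medians were 0.18 and 0.087. The interval of the difference lay within a 1.5-fold change in either direction for TLR1, TLR2, TLR3, MYD88 and TICAM1, and so for 5 of the 8 members and 75.7% of all probe sets. It reached past 1.5-fold on the lower side for TLR4 and on the higher side for TLR6 and TLR9, so a change of that size in that direction is within their intervals. The sign of the difference rested on 1 silenced array in several members. Without the second silenced array TLR4 stood at 0.066, TLR1 at 0.13, TLR9 at -0.12 and MYD88 at 0.021, and without the first TLR3 stood at -0.098 and TLR6 at -0.14. MYD88 also stood at 0.033 without the second control array. Without the first silenced array, 3 of the 8 members (TLR1, TLR4 and TLR9) had an unadjusted limma p under 0.05, against 19.4% of all probe sets, and without the second, 2 of the 8 (TLR3 and TLR6), against 10.9%. Their adjusted limma p-values lay between 0.202 and 0.450. Without the first control array the count was 0, against 1.48% of all probe sets, and without the second control array it was 0, against 1.10%. With 1 array left in a group, that array is assumed to vary like those of the other group.

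**Figure D3:**
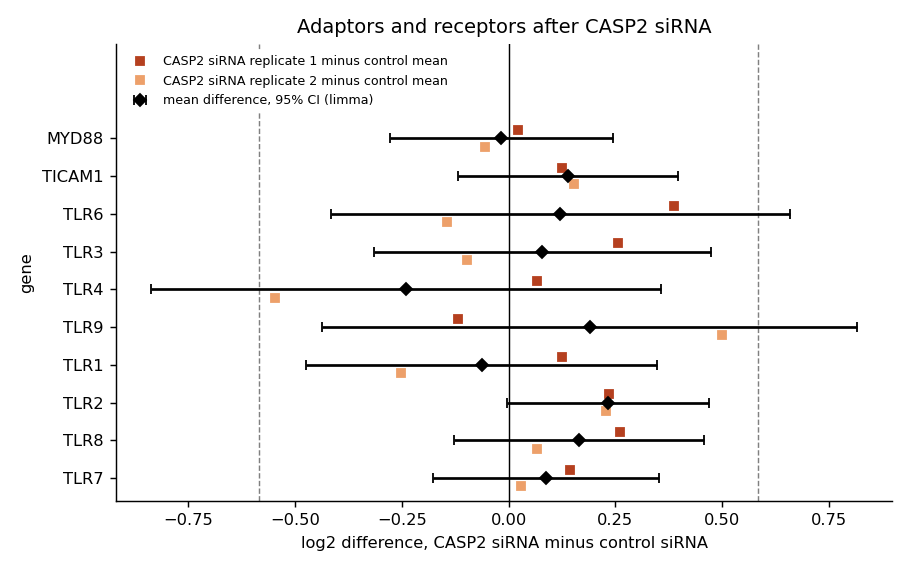
Log2 difference between CASP2 siRNA and control siRNA (x axis) for the adaptors and 8 Toll-like receptors (y axis). Diamonds with bars are the mean difference and its limma 95% confidence interval, squares are the silenced arrays minus the control mean and dashed lines mark 1.5-fold; every interval includes 0, and for TLR1, TLR3, TLR4, TLR6, TLR9 and MYD88 the silenced arrays lie on either side of 0.

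Further genes of the pathway were counted with 1 probe set each, the brightest. Of 79 measured genes in 8 lists, the receptors and adaptors included and UNC93B1 left out, 0 passed the thresholds of the study by limma, against 0.185% of 18404 genes. An unadjusted limma p under 0.05 was reached by 1 of the 79, ICAM1, which was higher, against 2.10% of all genes in either direction. The methods' t-test gave 0 of the 79 at an unadjusted p under 0.05, against 0.179% of all genes. The median log2 difference of the 79 was 0.022, beside -0.00089 over all genes. Of the 79, 44 were above 0, beside 49.7% of all genes.

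Among 9 further chaperone and trafficking genes, 5 were below 0 and the median was -0.049. HSP90B1, also called gp96, the endoplasmic reticulum chaperone that folds most Toll-like receptors, lay at 12.70 and 12.63 on the control arrays and at 12.55 and 12.60 on the silenced arrays, a difference of -0.092 (interval -0.34 to 0.16). CNPY3, its co-chaperone for these receptors, had -0.13 (-0.37 to 0.11). TASL, an adaptor of endosomal receptor signalling, had 0.20 (-0.052 to 0.45) at a level below the olfactory receptor median, 3.38 to 3.64. SLC15A4, the endolysosomal transporter that recruits TASL, lay at 10.82 to 10.90 with a difference of 0.038. The differences of the 9 genes ran from -0.13 to 0.20.

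All 6 endosomal proteases lay above the olfactory receptor range, as did most probe sets of each array, and their median difference was -0.0090. These enzymes cut the ectodomains of endosomal receptors, and CTSB and CTSL lay near 12 and 11.5. LGMN, an asparagine endopeptidase, had 0.10 (interval -0.15 to 0.36), CTSS, cathepsin S, -0.11 (-0.73 to 0.50), and CTSF, cathepsin F, -0.025 (-0.36 to 0.31). Of 8 co-receptors, 2 lay above the range, GRN at 12.34 to 12.42, a secreted cofactor of TLR9, and LY96 at 8.87 to 9.13, also called MD-2, the partner of TLR4. CD14, which hands lipopolysaccharide to TLR4 and LY96, lay at 5.31 and 5.19 on the control arrays and at 5.01 and 5.55 on the silenced arrays, within the range. CD180 had 0.16 (interval -0.12 to 0.43), LBP, the lipopolysaccharide-binding protein, 0.19 (-0.16 to 0.54), and LY86, the partner of CD180, -0.097 (-0.34 to 0.14).

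Of 5 adaptors measured, 3 were below 0. Beside TICAM1, the smallest p-values were those of SCIMP, with -0.090 (interval -0.36 to 0.18), and SARM1, an adaptor that restrains TICAM1, with -0.077 (-0.41 to 0.26). TICAM2 shares its probe set with other symbols and was not named. Of 19 signalling genes, 10 were above 0 and the median was 0.011. IKBKG, the regulatory subunit of the IKK complex also called NEMO, had -0.21 (interval -0.48 to 0.065), IRAK2, a kinase downstream of MYD88, 0.17 (-0.12 to 0.47), and IRF3, the interferon regulatory factor downstream of TICAM1, -0.13 (-0.43 to 0.18).

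Of 12 inhibitors, 7 were above 0 and the median was 0.059. TNFAIP3, the deubiquitinase A20, had 0.26 (interval -0.093 to 0.62), SOCS1, a suppressor of cytokine signalling, 0.14 (-0.14 to 0.42), and IRAK3, a kinase relative that blocks IRAK signalling, 0.15 (-0.12 to 0.42) at a level of 3.26 to 3.51.

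Of 12 genes that Toll-like receptors induce, 8 were above 0 and the median was 0.19, the highest of the 8 lists. Their mean level was 6.58 and 6.72 on the control arrays and 6.84 and 6.80 on the silenced arrays. ICAM1, an adhesion molecule, lay at 5.82 and 5.995 on the control arrays and at 6.22 and 6.30 on the silenced arrays. The difference was 0.35 (interval 0.061 to 0.65, limma adjusted p = 0.9999). This level is near the olfactory receptor range. ICAM1 was below the 99th percentile of those probe sets (6.02 to 6.48) on every array but the first silenced one. TNF lay at 5.56 and 5.64 against 5.74 and 6.05, a difference of 0.30 (-0.070 to 0.66). Its control values were just above the olfactory receptor range, whose limit was 5.51 and 5.50 on those arrays. IL6 lay at 7.10 and 7.53 against 7.54 and 7.81, a difference of 0.36 (-0.15 to 0.87). The second control and the first silenced array of this cytokine nearly coincided. IFNB1 and CXCL10, targets of the TICAM1 and endosomal branches, lay below the olfactory receptor median on all arrays, at 3.38 to 3.53 and at 3.41 to 3.55. With all 4 arrays CXCL8 was 1.27-fold higher, a log2 difference of 0.35 (interval -0.20 to 0.90). Its second control array lay at 9.33 and its second silenced array at 9.35. CCL2 was 1.28-fold higher, a log2 difference of 0.36 (interval -0.23 to 0.94), and its groups overlapped. Both intervals include 0. Without the second control array CXCL8 was 1.54-fold higher, and without the second silenced array CCL2 was 1.53-fold higher. Each of these values rests on 1 array in a group, and the share of all genes past 1.5-fold in these settings was not counted.

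**Figure D4:**
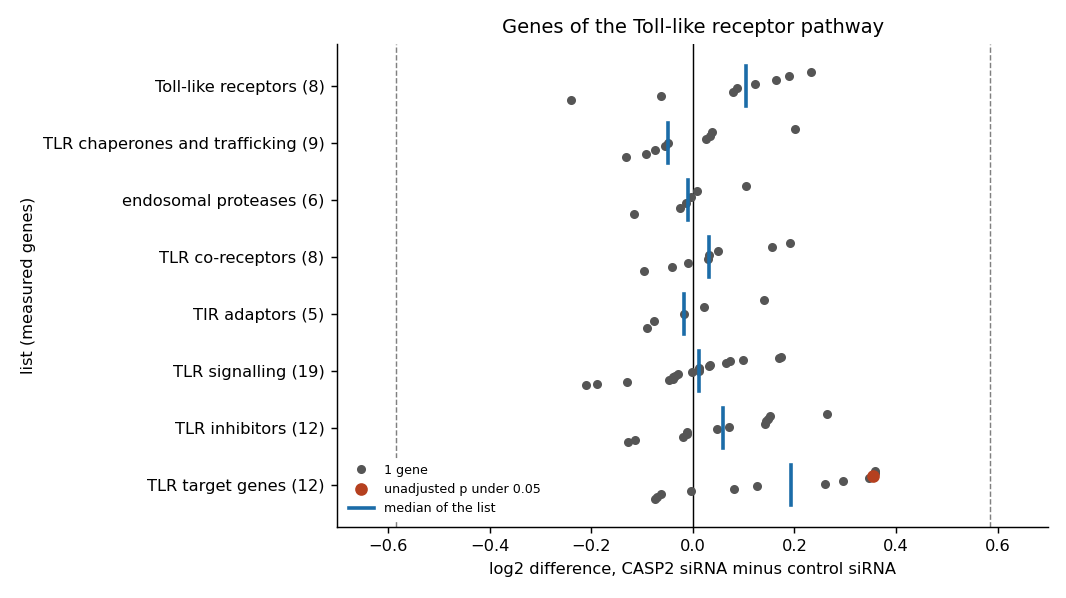
Log2 difference between CASP2 siRNA and control siRNA (x axis) of each measured gene, by its brightest probe set, in the 8 pathway lists (y axis, with the number of genes). Points are genes, the larger point is ICAM1 (0.35), vertical bars are list medians and dashed lines mark 1.5-fold; every gene lies between the dashed lines.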

How the data were processed

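Total RNA of 4 U87MG cultures was hybridized to Affymetrix GeneChip Human Gene 1.0 ST arrays. The authors normalized the arrays by RMA (software version: not given in the sources used here). Each of 32321 probe sets has 1 deposited log2 value for every array. RMA brings the arrays to a common distribution, which removes most changes shared by all genes. Groups came from the sample labels.

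Probe sets were named where the platform annotation gave 1 symbol (19158, of which 19128 were updated by gene ID through RefSeq, assembly GRCh38.p14). No probe positions or sequences were used. All probe sets were fitted with limma 3.58.1 in R 4.3.3 (two-sided), p-values were adjusted by Benjamini-Hochberg over the whole table, and the fit was tested on simulated data. With 2 arrays against 2, the smallest p of an exact two-sided permutation test is 0.333. Precision is limited by the number of arrays, and p-values measure only the spread between these arrays.

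The members and gene lists were chosen with earlier results of these data known. Named genes were the members, further receptors, the 3 genes with the smallest p of each list, and the 5 probe sets closest to UNC93B1 probe set 7949904. SLC15A4, CTSB, CTSL, GRN, LY96, CD14, IFNB1, CXCL10, CXCL8, CCL2 and the cell markers outside this rule were named after their values were seen. Alternatives were the methods' t-test (pooled standard deviation raised to its median), eBayes with trend and robust options, a further quantile normalization, leaving out dim probe sets, linear means, a replicate block, other reference genes or percentiles, all probe sets of a gene, and each array left out in turn.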

Additional observations from a re-analysis of the deposited data

How the results depend on the processing

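The methods' t-test, the eBayes options, the replicate block and the filter on dim probe sets change only the p of a log2 difference, so its value is open to change under the other alternatives alone. UNC93B1 probe set 7949904 ranged from -0.82 to -0.67 with each array left out in turn, and stood at -0.72 after a further quantile normalization. The gene was chosen for its lower value on these same arrays, so this range describes them and is no test of the change. No receptor or adaptor passed the adjusted limma test or the thresholds of the study under any alternative that kept all 4 arrays. In the main fit 0.00% of all probe sets passed the adjusted limma test, so it could not set the members apart from other genes. Leaving out an array turned the sign of TLR1 (range -0.25 to 0.13), TLR3 (-0.098 to 0.26), TLR4 (-0.55 to 0.066), TLR6 (-0.14 to 0.39), TLR9 (-0.12 to 0.50) and MYD88 (-0.067 to 0.033), and left TLR2 (0.22 to 0.24) and TICAM1 (0.084 to 0.20) above 0. The number of pathway genes past the thresholds of the study was 0 in every setting that kept all 4 arrays. Leaving out the second control array took CXCL8 past 1.5-fold, and leaving out the second silenced array took CCL2 past it. The share of all genes past 1.5-fold in these settings was not counted. The number of receptors above the olfactory receptor range went from 4 to 5. That number was 0 with keratin-associated protein and bitter taste receptor genes as the reference, and the cause was not tested. TLR1 and TLR2 have no value without dim probe sets, since both had means under the median one. The labels give both groups the replicate numbers 1 and 2, but the deviations of same-numbered arrays correlated with r = 0.020 over all probe sets and nothing else pairs them. With the replicate block the number of members past the thresholds of the study stayed at 0 and that of pathway genes at 0.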
